A study of Prunus persica with 8 samples.

Results

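The 200 genes with the largest share of reads in peach shoot tips were described across 4 weeping and 4 standard trees. Peach (Prunus persica) reads were counted per gene, each count was divided by the total of its library and multiplied by 1000000 (giving CPM), and the genes were chosen by this value: the 200 of highest mean CPM over the 8 libraries were taken from scaffolds 1, 4, 5, 6, 7 and 8. They are 200 of 21162 genes on those scaffolds and of 27864 genes in the table. Since the mean over all trees chose them, their high level is not a result. A gene very high in some trees or in 1 habit can enter through them, so the spread among trees and the difference between habits are not wholly apart from the choice, and neither is the read count that longer genes collect. The genes of rank 199 and 200 had mean CPM of 449.04 and 448.74, and those of rank 201 and 202 had 448.59 and 447.74, so the border falls among genes of nearly equal abundance. A further 55 genes on the other scaffolds, 52 of them on scaffolds 2 and 3, reached the level of the last member and are not among the 200.

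The weeping group was made of weeping trees 1, 2, 3 and 4, whose branches bend downward, and the standard group of standard trees 7, 8, 9 and 10 with the usual crown. All 8 were mature trees of an F2 population raised from breeding parents and grown in a field, and none is a named cultivar. Each library was made from 4 lateral shoot tips of about 4 cm. Trees of an F2 differ across the genome, and the genotypes of these trees beyond their habit were not analysed here.

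A sequencing library samples a fixed number of fragments from all messenger RNA, so the share of a gene depends on its own transcript and on the sum of the others. In plants the most abundant messages of green shoots commonly encode photosynthetic proteins, ribosomal proteins, translation factors, protective proteins and proteins of the cell wall. Many of these belong to families with near-identical copies, and a short read from such a family can fit several genes. No names stand beside the identifiers of the table, and 0 of 27864 could be found in the gene table of RefSeq, so the genes are given here by position and no function is assigned to any of them. For the same reason the tissue could not be compared with marker genes. In these bulk samples fewer cells of a type and less RNA per cell cannot be told apart.

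Libraries held 17011614 to 21584724 reads in genes in weeping trees and 17773493 to 19865152 in standard trees. At this depth a gene among the 200 had on average so many reads that counting alone gives it a coefficient of variation (CV, the SD over the mean) of at most 1.09%. Per the file headers, lane 8 carried weeping trees 3 and 4, and lane 6 carried all standard trees with weeping trees 1 and 2.

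Together the 200 genes took a smaller mean share of all reads in weeping trees, with overlap between the habits. Their share was 21.0%, 19.7%, 19.4% and 20.5% in weeping trees 1 to 4, against 20.9%, 21.6%, 21.1% and 20.6% in standard trees 7 to 10. The ranges overlapped, since weeping tree 1 lay above standard trees 7 and 10. Weeping trees 2, 3 and 4 lay below every standard tree. The means were 20.1 ± 0.730% in weeping and 21.0 ± 0.430% in standard trees (SD, n = 4 each), a difference of -0.902 percentage points. Had the 200 genes been chosen in weeping trees alone, which shares 185 of them, the means would be 20.3% in weeping and 20.6% in standard trees, and with a choice in standard trees alone 19.5% and 21.2%. A smaller gap follows from the former choice and a larger gap from the latter. The first 50 of the 200 took 10.2 ± 0.431% in weeping and 11.1 ± 0.242% in standard trees (SD, n = 4 each). For the first 100 the means were 14.5 ± 0.638% and 15.6 ± 0.381% (SD, n = 4 each). In both sets, which include the 10 most abundant genes, every weeping tree lay below every standard tree. No test was made of these sums over genes that were chosen with earlier results known.

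The 10 most abundant genes took a smaller share in weeping trees, though the size of the gap depended on how they were chosen. They took 3.57%, 3.72%, 3.43% and 4.48% of reads in weeping trees 1 to 4, against 5.14%, 5.03%, 4.92% and 4.81% in standard trees 7 to 10. Every weeping tree lay below every standard tree, with weeping tree 4 nearest to the standard trees. The means were 3.80 ± 0.466% and 4.97 ± 0.141% (SD, n = 4 each), a difference of -1.18 points. The 10 most abundant genes of weeping trees alone took 4.05% in weeping and 4.17% in standard trees, so most of the gap was lost with that choice. A smaller gap follows from choosing genes by their level in weeping trees. Genes such as that of rank 8 stand among the first 10 through their level in standard trees. The genes of rank 11 to 50 took 6.42 ± 0.391% in weeping and 6.16 ± 0.322% in standard trees, those of rank 51 to 100 took 4.23 ± 0.218% and 4.44 ± 0.253%, and those of rank 101 to 200 took 5.69 ± 0.183% and 5.47 ± 0.0846% (SD, n = 4 each), and the groups overlapped in all 3 ranges.

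**Figure D1:**
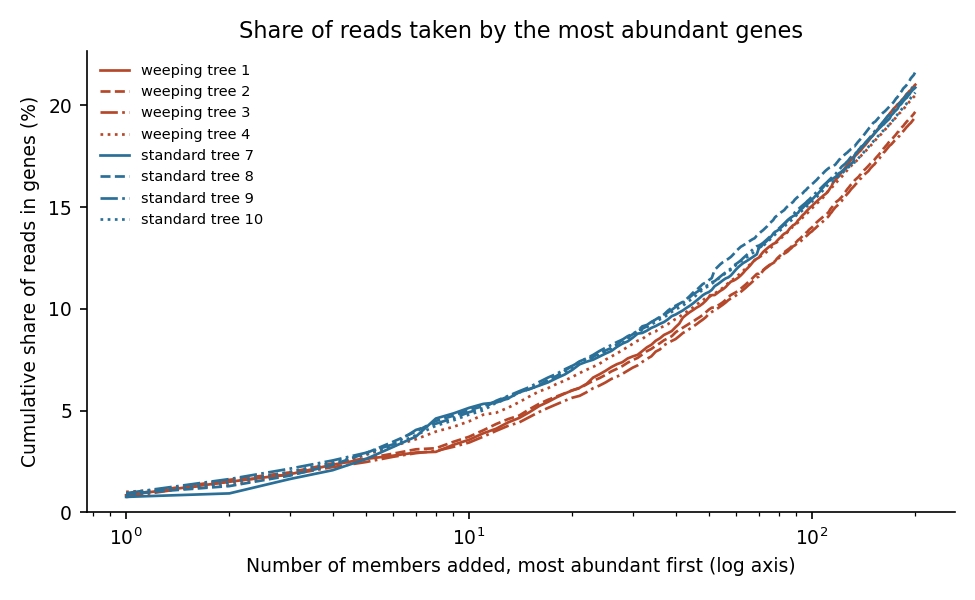
Cumulative share of the reads in genes (%) against the number of genes added in order of mean CPM (log axis), 1 line per library, weeping trees in red and standard trees in blue. By the gene of rank 10 the weeping libraries lie between 3.43% and 4.48% and the standard libraries between 4.81% and 5.14%. By the gene of rank 200 weeping tree 1 lies above standard trees 7 and 10, and the other weeping trees lie below all standard trees.

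Over all 200 genes, 104 had a lower mean share in weeping trees, by 3.43 points in sum, and 96 had a higher one, by 2.52 points. The 3 largest single losses were those of ranks 8, 7 and 6, at -0.402, -0.327 and -0.240 points, which sum to -0.969. The largest single gain was that of rank 2, at 0.164 points. The losses of these 3 genes alone exceeded the net difference of the 200. They were picked as the largest losses, and the net sets all losses against all gains, so this does not give their part in it. The number of genes needed to hold 50% of a library's reads was 1177 to 1414 in weeping and 1228 to 1338 in standard trees, with no separation of the habits.

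The order at the top was not the same in every tree. The gene on scaffold 1 from 38637142 to 38638999 was first in 6 of the 8 libraries and second in the other 2. It took 8451, 8550, 7547 and 10095 CPM in weeping trees 1 to 4, against 7633, 9145, 9465 and 8664 CPM in standard trees 7 to 10. The groups overlapped, and the log2 fold change (weeping over standard, as in all that follows) came to -0.02, standard error 0.18 (adjusted p = 0.958 by edgeR's quasi-likelihood test). Only 23.8% of its reads had a unique place in the genome, while the rest also fitted other positions.

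The gene of rank 2, on scaffold 1 from 38724616 to 38726517, varied widely in both habits. It had 6609, 7461, 7671 and 3191 CPM in weeping trees 1 to 4, against 1716, 3795, 6919 and 5961 CPM in standard trees 7 to 10. Weeping tree 4 and standard tree 7 were the low libraries of their habits, and the habits overlapped (adjusted p = 0.530 by edgeR). The gene was first in weeping tree 3 and at rank 24 in standard tree 7.

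Of the 8 genes that followed down to rank 10, 5 had lower means in weeping trees with weeping tree 4 apart from the other 3. At rank 3, a gene on scaffold 6 from 22947380 to 22948345 had 3700, 3642, 3359 and 5636 CPM in weeping trees 1 to 4, against 7054, 5132, 5104 and 5293 CPM in standard trees 7 to 10. At rank 5, a gene on scaffold 8 from 12297812 to 12298920 had 2863, 2451, 2483 and 5140 CPM in weeping trees, against 5454, 5775, 3755 and 4062 CPM in standard trees. In both genes weeping tree 4 lay within the range of the standard trees, while the other 3 weeping trees lay below it. Neither passed the test (log2 fold changes -0.47 and -0.56, adjusted p = 0.174 and 0.213 by edgeR), while without weeping tree 4 both did (-0.68 and -0.89, adjusted p = 0.0378 and 0.0256). Weeping tree 4 was the highest weeping tree in both, so a larger fall without it follows from that choice. Of all genes tested, 20.9% passed in that fit. With each tree left out in turn the log2 fold changes ran from -0.68 to -0.35 and from -0.89 to -0.44.

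Rank 6 was held by a gene on scaffold 1 from 38585550 to 38588769, with 1582, 2318, 2574 and 4270 CPM in weeping trees 1 to 4, against 5956, 5626, 4126 and 4631 CPM in standard trees 7 to 10 (log2 fold change -0.93, adjusted p = 0.0665 by edgeR). Rank 8 was held by a gene on scaffold 8 from 12279538 to 12280787, with 329, 521, 1070 and 3738 CPM in weeping trees, against 8861, 5192, 3038 and 4635 CPM in standard trees. It stood first in standard tree 7 and only at rank 333 in weeping tree 1. Its log2 fold change of -1.94 had a standard error of 0.72, and with all 8 libraries it did not pass (adjusted p = 0.105 by edgeR). Both genes passed without weeping tree 4, with log2 fold changes of -1.27 at rank 6 and -3.12 at rank 8 (adjusted p = 0.00945 and 0.00802 by edgeR). They also passed in lane 6 alone, which leaves out weeping trees 3 and 4, with -1.38 and -3.67 (adjusted p = 0.0264 and 0.0153 by edgeR). Both fits leave out weeping tree 4, the highest weeping tree for both genes, so a larger fall follows from that choice. Of all genes tested, 20.9% passed in the first fit and 9.9% in lane 6. With each tree left out in turn the log2 fold changes ran from -1.27 to -0.75 and from -3.12 to -1.61.

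The gene of rank 7 was the only one of the first 10 to pass the test. It lies on scaffold 6 from 5286088 to 5289311 and had 1553, 2149, 1805 and 3450 CPM in weeping trees 1 to 4, against 5135, 5024, 7122 and 4763 CPM in standard trees 7 to 10. The groups did not overlap, and the log2 fold change was -1.31 with a standard error of 0.27 (adjusted p = 0.0257 by edgeR). Just 0.834% of its reads had a unique place, the lowest share among the 200, so nearly all of its level is shared with similar sequence elsewhere. With single-position reads alone the log2 fold change was -0.95 and the call was lost (adjusted p = 0.0651 by edgeR).

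The other 3 genes of the first 10 did not pass the test. At rank 4, a gene on scaffold 6 from 25072621 to 25073618 had 4249 ± 421 CPM in weeping and 4547 ± 513 CPM in standard trees. That of rank 9, on scaffold 6 from 2978447 to 2981737, had 2740 ± 673 and 2615 ± 104 CPM, and the gene of rank 10, on scaffold 4 from 1213361 to 1215835, had 2452 ± 243 and 2825 ± 84.7 CPM (SD, n = 4 each; adjusted p = 0.699, 0.850 and 0.330 by edgeR). The last of these had every weeping tree below every standard tree.

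**Figure D2:**
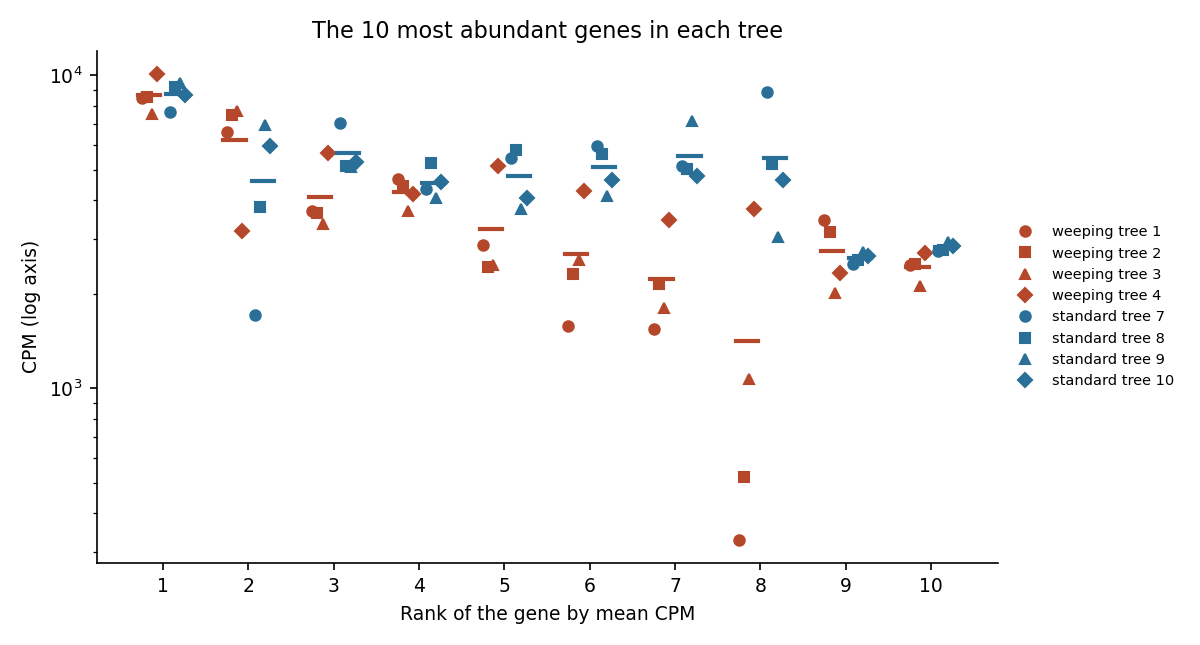
CPM (log axis) of the 10 most abundant genes by rank, weeping trees in red on the left of each pair and standard trees in blue on the right, 1 symbol per tree and a bar at the mean of each habit. Weeping tree 4 (diamond) lies above the other weeping trees at ranks 3, 5, 6, 7 and 8, and standard tree 7 (circle) lies lowest at rank 2 and highest at rank 8.

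Weeping was then compared with standard for every gene of the table, and the rows of the 200 were read from that fit. All 200 passed the filter on low counts. By edgeR's quasi-likelihood test at an adjusted p of 0.05, 28 of the 200 (14%) changed, where 11.5% of all 18520 genes tested did. Of these 16 (8%) rose, against 5.33% of all genes, and 12 (6%) fell, against 6.18%. The share that fell is near that of all genes. In 53 of the 200 (26.5%) every weeping library lay on the same side of every standard library, 33 of them with weeping above and 20 with weeping below, where 18.3% of all tested genes did so, 9.23% and 9.04% by direction.

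The median log2 fold change was -0.02 over the 200 and 0.01 over all genes tested, so neither direction prevailed. Without regard to sign the median was 0.32 over the 200 and 0.23 over all genes tested. A change of at least 2-fold in either direction, called or not, was found in 12 of the 200 (6%) and in 7.51% of all genes tested, and 159 of the 200 lay within 1.5-fold of no change, where 81.3% of all genes did. The 16 genes that rose had log2 fold changes of 0.40 to 1.33 with a median of 0.63, close to the 0.62 of all genes that rose. The 12 that fell had -1.49 to -0.49 with a median of -0.71, against -0.95 for all genes that fell. A change of at least 2-fold was found in 4 of the 28, 1 that rose and 3 that fell.

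The calls had adjusted p from 0.0138 to 0.0482 by edgeR, and their number depended on which trees entered the fit. Leaving out weeping tree 2 left 0 of the 200 past the threshold (0.107% of all genes tested), and leaving out in turn weeping trees 1 and 3 and standard trees 7, 8 and 10 left 7, 9, 9, 4 and 7 of the 200 (2.28%, 2.32%, 2.53%, 1.37% and 2.39% of all genes tested). Leaving out weeping tree 4 gave 49 (20.9% of all genes tested), 27 of the 28 among them, and leaving out standard tree 9 gave 50 (18.1%), all 28 among them. All 28 kept their sign in all 8 of these fits. In 26 of the 28 the habits did not overlap, so leaving out trees, also in the lane 6 fit below, could hardly turn the sign. In lane 6 alone, 4 standard and 2 weeping trees, 17 of the 200 passed (9.9% of all genes tested), 11 of them among the 28, and all 28 had the same sign there. Lane 8 held weeping trees only, and with lane as a model term, added after seeing the data, 17 passed (8.7% of all genes tested), 13 of them among the 28. DESeq2 called 62 of the 200 (19.2% of all genes tested), 35 higher (9.37%) and 27 lower (9.87%). By limma-voom 34 were called (13.1%), 17 higher (6.04%) and 17 lower (7.1%), and both lists held all 28. Without the filter on low counts edgeR called 20 (8.22% of all genes tested), with a fold minimum of 2 it called 4 (3.83%), and at an adjusted p of 0.01 it called 0 (0.0486%). At an unadjusted p of 0.05, 77 of the 200 (38.5%) passed by edgeR, and 31.2% of all genes tested did.

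**Figure D3:**
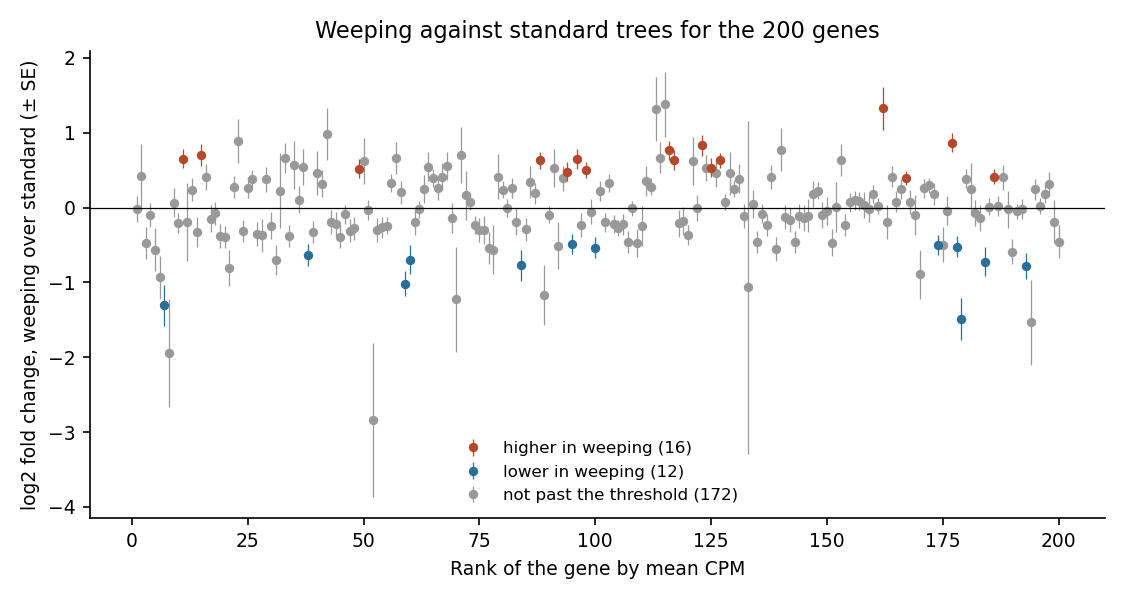
Log2 fold change, weeping over standard, with its standard error for each of the 200 genes against its rank by mean CPM. Red points are the 16 genes that rose and blue points the 12 that fell by edgeR at an adjusted p of 0.05. Grey points are the 172 that did not pass, among them the widest error bars, at ranks 133, 52 and 8.

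Of the genes that rose and whose habits did not overlap, the 6 of smallest adjusted p were named. The first was ppa004851m.g on scaffold 7 (5283340 to 5287690), which had 682, 639, 572 and 620 CPM in weeping trees 1 to 4, against 331, 289, 377 and 378 CPM in standard trees 7 to 10. Each weeping tree lay well above each standard tree. Its log2 fold change was 0.87 with a standard error of 0.12 (adjusted p = 0.0138 by edgeR), and of the 8 fits with a tree left out it lost its call in the 1 without weeping tree 2 (adjusted p = 0.0552).

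The next was ppa005045m.g on scaffold 1 (27617441 to 27620412), with 744, 840, 743 and 729 CPM in weeping trees, against 461, 468, 505 and 531 CPM in standard trees. Weeping tree 2 stood above the other 3 weeping trees, which lay close to each other. Its log2 fold change was 0.63 with a standard error of 0.10 (adjusted p = 0.0160 by edgeR). A gene on scaffold 6 from 17983330 to 17986247 had 817 ± 118 CPM in weeping and 457 ± 45.1 CPM in standard trees (SD, n = 4 each; log2 fold change 0.83, adjusted p = 0.0162 by edgeR).

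The gene on scaffold 1 from 8141239 to 8143517 had 825 ± 72.1 CPM in weeping and 483 ± 65.8 CPM in standard trees, and the gene on scaffold 1 from 45475187 to 45476989 had 935 ± 87.3 and 601 ± 44.5 CPM (SD, n = 4 each; adjusted p = 0.0170 and 0.0178 by edgeR). The sixth, of rank 11 among the 200, was the most abundant gene that rose. It lies on scaffold 8 from 15667080 to 15669562 and had 3186, 3172, 2894 and 3261 CPM in weeping trees 1 to 4, against 1963, 1940, 1990 and 2043 CPM in standard trees 7 to 10. The trees of each habit were close to each other, with CVs of 5.15% in weeping and 2.23% in standard trees, and the standard value was the smallest among the 200. Its log2 fold change was 0.65 with a standard error of 0.12 (adjusted p = 0.0219 by edgeR), and it kept its call in 3 of the 8 fits with a tree left out.

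Of the genes that fell, 6 were named in the same way. The first was ppa000977m.g on scaffold 1 (37544314 to 37551386), of rank 59, which had 465, 671, 685 and 807 CPM in weeping trees 1 to 4, against 1458, 1287, 1357 and 1177 CPM in standard trees 7 to 10. Its log2 fold change was -1.02 with a standard error of 0.17 (adjusted p = 0.0162 by edgeR), and of the 8 fits with a tree left out it lost its call in the 1 without weeping tree 2 (adjusted p = 0.0606). The second was ppa014171m.g on scaffold 1 (28721397 to 28722529), with 195, 213, 207 and 407 CPM in weeping trees, against 984, 663, 638 and 574 CPM in standard trees. It had the largest fall of the 28, with a log2 fold change of -1.49 and a standard error of 0.28 (adjusted p = 0.0208 by edgeR). Weeping tree 4 again lay between the other weeping trees and the standard trees.

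The third was the gene of rank 7 described above. The fourth was a gene on scaffold 8 from 21560817 to 21561548, with 339 ± 15.4 CPM in weeping and 578 ± 153 CPM in standard trees. The fifth was a gene on scaffold 8 from 11067956 to 11070333, with 993 ± 83.9 and 1526 ± 247 CPM, and sixth a gene on scaffold 5 from 11903568 to 11905750, with 572 ± 76.1 and 829 ± 83.4 CPM (SD, n = 4 each; adjusted p = 0.0294, 0.0307 and 0.0414 by edgeR). In these 3, as the rule for naming required, no weeping tree reached the lowest standard tree. Outside this rule, the gene of largest rise was named after its values were seen. It lies on scaffold 5 from 17722727 to 17727207, had 738 ± 148 CPM in weeping and 291 ± 123 CPM in standard trees (SD, n = 4 each), and had a log2 fold change of 1.33 (adjusted p = 0.0278 by edgeR).

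Calls were found at all depths of the list. Of the first 10 genes 0 rose and 1 fell, of ranks 11 to 50 3 rose and 1 fell, of ranks 51 to 100 4 rose and 5 fell, and of ranks 101 to 200 9 rose and 5 fell. The genes that rose took 1.72 ± 0.0607% of reads in weeping and 1.09 ± 0.0843% in standard trees, and the genes that fell took 0.815 ± 0.143% and 1.52 ± 0.0997% (SD, n = 4 each). The direction of these sums follows from the calls. The gain and the loss were of similar size. The authors' deposited table lists a corrected p under 0.05 for 51 of the 200 (25.5%), 37 of them with higher and 14 with lower values in weeping. Of all 27864 genes 4.46% had such a p. That share includes the 9344 genes that the filter on low counts removed here, so it is not like the shares over genes tested. Among the 51, 24 were also called by edgeR, all 24 in the same direction.

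The spread among trees of a habit was given by the CV of the 4 trees. The median CV was 13.6% among weeping and 15.5% among standard trees, where counting alone gives a median of 0.872%. Over all genes tested the medians were 14.6% and 14.1%, with a median counting CV of 5.08%. Over the 800 genes that follow, of rank 201 to 1000, the medians were 10.4% and 11.9%. Between the habits there was no common direction, since 98 of the 200 had the wider CV in weeping trees.

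Stable genes were a minority, as they were among all genes tested. A CV under 10% was found for 72 genes in weeping trees, for 49 in standard trees and for 25 in both. The lower quartile of the CV was 8.79% in weeping and 10.1% in standard trees over the 200. Over all genes tested it was 8.95% and 8.57%. At the other end, 32 genes in weeping trees and 25 in standard trees had a highest tree at least 2-fold above the lowest, 18 of them in both habits. A CV of 50% or more in either habit was found for 12 genes.

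**Figure D4:**
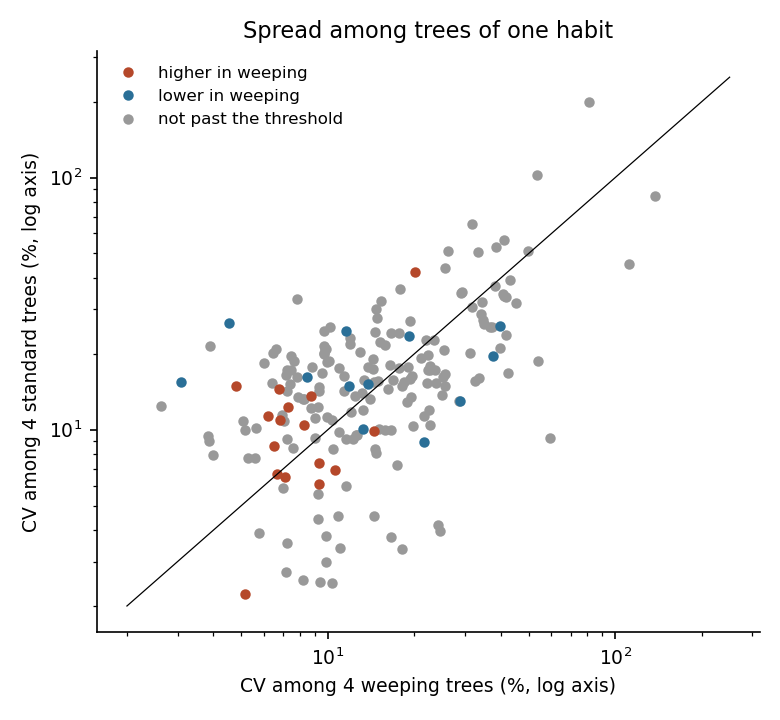
CV among the 4 weeping trees (x axis, %) against CV among the 4 standard trees (y axis, %) for each of the 200 genes, both on log axes with the line of equality. Most points lie below 20% in both habits, and those farthest out reach 138% in weeping and 199.6% in standard trees.

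The widest spread in standard trees, a CV of 199.6%, was that of the gene of rank 133 on scaffold 8 from 16828572 to 16829963. It had 5506, 15758, 9601 and 27 reads in weeping trees 1 to 4, against 59896, 31, 27 and 22 reads in standard trees 7 to 10. Abundant and nearly silent trees thus occurred in both habits, with standard tree 7 far above all others, and the fitted log2 fold change of -1.07 had a standard error of 2.22. In standard tree 7 the gene stood at rank 8, and in standard tree 10 at rank 13538. It was among the 200 most abundant genes of 3 trees, and its mean over the other 7 libraries, without standard tree 7, was 222.7 CPM, below the level of the last member.

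The widest spread in weeping trees, 138%, was that of the gene of rank 52 on scaffold 5 from 17932884 to 17933642. It had 38.8, 48.8, 809 and 169 CPM in weeping trees 1 to 4, against 1815, 4009, 511 and 978 CPM in standard trees 7 to 10. Weeping tree 3 lay within the range of the standard trees. The mean was 266 ± 366 CPM in weeping and 1828 ± 1551 CPM in standard trees (SD, n = 4 each), and the log2 fold change of -2.83, the largest of the 200, had a standard error of 1.03 and did not pass (adjusted p = 0.0999 by edgeR). In lane 6 alone the log2 fold change was -5.38 and passed (adjusted p = 0.0251 by edgeR). That fit leaves out weeping trees 3 and 4, the highest weeping trees for this gene, so a larger fall follows from that choice. Another wide spread was that of rank 70, on scaffold 1 from 30148515 to 30149349, with 573, 169, 566 and 883 CPM in weeping trees, against 3227, 926, 325 and 658 CPM in standard trees. Its CV was 103% among standard trees, where standard tree 7 was the highest library, and 53.4% among weeping trees.

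Single trees differed in how often they stood at the edge of their habit. Weeping trees 1 and 4 were the highest or the lowest weeping tree for 120 and 121 of the 200 genes, against 79 and 80 for weeping trees 2 and 3. Among standard trees, tree 9 stood at an edge for 131 genes, tree 7 for 124, tree 8 for 98 and tree 10 for 47. For the 57 genes whose habit means lay at least 0.5 apart on the log2 scale, weeping tree 4 was the weeping tree nearest to the standard mean in 35, and standard tree 9 was the standard tree nearest to the weeping mean in 32. Each tree's own list of 200 most abundant genes held 171, 176, 180 and 177 of the 200 in weeping trees 1 to 4, against 162, 170, 181 and 178 in standard trees 7 to 10. The lists of all 8 trees had 120 genes in common, and 301 genes were on at least 1 of them.

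Reads were shared with similar copies in a minority of the 200, though in several of the most abundant. For 163 genes at least 99% of reads were placed at a single position, while for 25 (12.5%) less than 90% were, a share similar to the 11.0% of all genes tested. For 14 genes it was less than 50%, and these included ranks 1, 2, 6, 7 and 12. Levels of these genes are uncertain, since reads could have been split among copies. With single-position reads alone 190 of the 200 would be chosen again, and 26 of the 28 calls kept their direction and their call. The others were the genes of rank 7 and rank 174.

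A stretch of scaffold 1 held 8 of those 14 genes. It was delimited after its values were seen, and runs over 0.526 Mb from 38509069 to 39035515. It holds 41 genes of the table, and 8 of them were among the 200 (ranks 1, 2, 6, 12, 32, 89, 174 and 189), with 23.7 to 48.6% of reads placed at a single position. Together they took 2.20%, 2.47%, 2.37% and 2.06% of reads in weeping trees 1 to 4, against 1.75%, 2.41%, 2.92% and 2.67% in standard trees 7 to 10. Standard tree 7 was the lowest library and standard tree 9 the highest, so the habits overlapped.

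Within this stretch the genes followed different patterns over the trees. Rank 12 (38942923 to 38944867) had 2267, 3089, 2860 and 980 CPM in weeping trees 1 to 4, against 650, 2303, 3655 and 3800 CPM in standard trees 7 to 10. Rank 32 (38980428 to 38982196) had 1882, 1691, 1707 and 811 CPM in weeping trees, against 374, 908, 2332 and 1553 CPM in standard trees. Like the gene of rank 2, both were lowest in standard tree 7 and, among weeping trees, in weeping tree 4. The gene of rank 6 ran the other way, with its highest values in standard tree 7 and, among weeping trees, in weeping tree 4, and the gene of rank 1 varied least of these. The gene of rank 174 (38509069 to 38510849) was the only 1 of the 8 that was called, with 406 ± 48.0 CPM in weeping and 568 ± 85.0 CPM in standard trees (SD, n = 4 each; log2 fold change -0.50, adjusted p = 0.0476 by edgeR). With single-position reads it no longer passed (adjusted p = 0.0545).

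Some abundant genes also lay close together at other places. Of the 200 genes, 65 had another of them within 100 kb on the same scaffold, in 38 pairs of neighbours, and 4 of these pairs had no other gene of the table between them. These counts include the stretch described above, and no like count was made for other genes. On scaffold 1 the genes of rank 98 (12894085 to 12897055) and rank 49 (12913062 to 12915550) had 1 gene between them and both rose, to 838 ± 78.1 CPM in weeping against 589 ± 35.9 CPM in standard trees and to 1320 ± 81.7 against 919 ± 104 CPM (SD, n = 4 each; adjusted p = 0.0293 and 0.0376 by edgeR). On scaffold 4 the adjoining genes of rank 19 (3725838 to 3726902) and rank 17 (3727962 to 3728810) had 40.6% and 35.4% of reads at a single position. Their levels were 1675 ± 131 and 1938 ± 187 CPM in weeping, against 2166 ± 350 and 2134 ± 425 CPM in standard trees, and neither passed. On scaffold 6 the adjoining genes of rank 46 (26186892 to 26190902) and rank 37 (26192089 to 26195648) did not vary alike. The first had 1079 to 1308 CPM in weeping and 1057 to 1386 CPM in standard trees, and the second had 892 to 2069 and 868 to 1225 CPM.

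By scaffold, 63 of the 200 lay on scaffold 1, 30 on scaffold 4, 22 on scaffold 5, 39 on scaffold 6, 21 on scaffold 7 and 25 on scaffold 8. That is 1.09 to 1.55% of the tested genes of each scaffold. Calls were made for 12 of those on scaffold 1 (19.0%, against 10.3% of all tested genes of that scaffold), 2 on scaffold 4 (6.67% against 12.4%), 5 on scaffold 5 (22.7% against 12.2%), 2 on scaffold 6 (5.13% against 12.0%), 4 on scaffold 7 (19.0% against 11.2%) and 3 on scaffold 8 (12% against 11.6%). These counts are small, and no difference between scaffolds was tested.

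By their median the genes were slightly shorter than all genes tested, but longer than the genes of the scaffolds they were chosen from. Their span, which includes introns, ran from 498 to 7179 bp with a median of 2389 bp. Over all genes tested the median was 2602.5 bp, and over the 21162 genes of scaffolds 1 and 4 to 8, before the filter on low counts, it was 2090 bp. A span over 5000 bp was found in 8% of the 200 and 15.5% of all genes tested, and a span under 1000 bp in 14.5% and 12.3%. The longest of the 200 were a gene on scaffold 1 from 39070541 to 39077719 with 7179 bp, which was called only without weeping tree 4 and by DESeq2 (adjusted p = 0.0489 and 0.0149, against 0.0768 by edgeR with all trees), and ppa000977m.g with 7073 bp. The shortest were a gene on scaffold 4 from 18678435 to 18678932 with 498 bp and a gene on scaffold 1 from 35132885 to 35133417 with 533 bp, and neither was called (adjusted p = 0.950 and 0.406 by edgeR).

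Fold changes leaned with span in the 200 as they did in all genes. The 16 genes that rose had a median span of 2971.5 bp and the 12 that fell 2389 bp, where the medians over all called genes were 3267 bp and 2051 bp. The 67 shortest genes of the 200 had a median log2 fold change of -0.10 with 1 that rose and 2 that fell, the 66 of middle span 0.01 with 8 and 7, and the 67 longest 0.17 with 7 and 3. A length offset took away, in each library, the median deviation of log CPM from the gene means within each of 20 classes of span. With this offset 28 of the 200 were called (11.6% of all genes tested), 17 higher and 11 lower. Of them, 25 were among the 28 called without it. Whether length bears on single calls was not tested beyond this.

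Per length of gene, the order changed. The authors' deposited RPKM values, reads per kb of span scaled to 1000000 mapped reads, averaged 58.5 to 4388 over the 8 libraries with a median of 307 among the 200, where the median of all genes tested was 6.59. The highest was the gene of rank 3, with 3680 ± 932 RPKM in weeping and 5095 ± 848 RPKM in standard trees (SD, n = 4 each). The gene of rank 1 followed with 4058 ± 487 and 4095 ± 375 RPKM, so the habit means of the first lay on either side of those of the second. A choice by RPKM would keep 133 of the 200 and give a median span of 1219.5 bp. A shorter median follows from that choice, since RPKM divides by span.

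**Figure D5:**
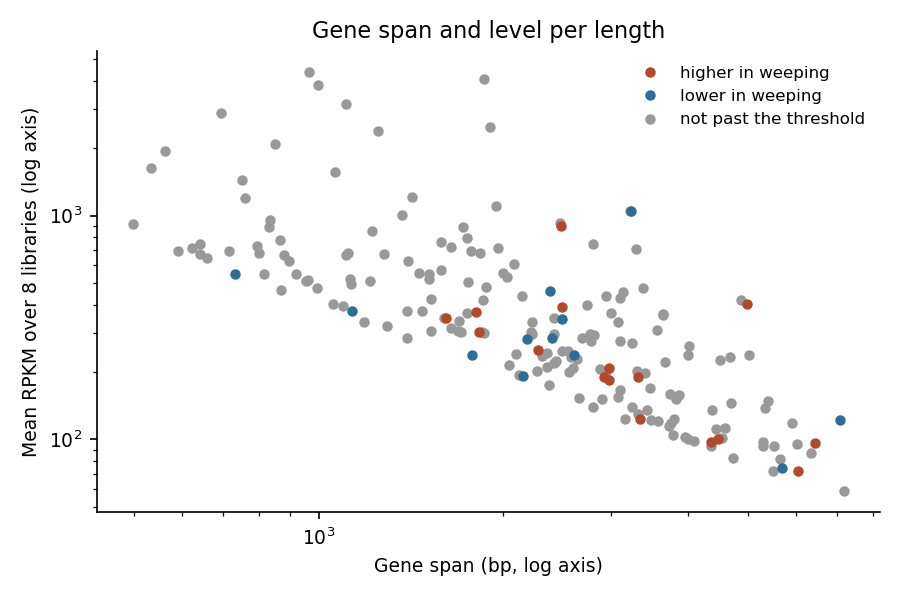
Mean RPKM over the 8 libraries against gene span (bp) for each of the 200 genes, both on log axes, with genes that rose in red, genes that fell in blue and the others in grey. The lower edge of the cloud is set by the choice on CPM. The 5 genes of highest RPKM span 695 to 1858 bp, and 0 of them were called.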

How the data were processed

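RNA was extracted from shoot tips with a total RNA kit and 2% PVP in the lysis buffer, and 50 bp unpaired reads were sequenced on an Illumina HiSeq, per the labels' protocols. The authors trimmed the reads and deposited, per the file headers, total exon read counts per gene (multi-mapping reads included), unique exon read counts, and RPKM (per kb of span and library of mapped reads). The authors also deposited p-values of Baggerley's test, corrected for multiple testing, and a score column of signed fold differences. Aligner, build and gene models: not given in the sources used here. Another 136 columns of per-library quantities were not used.

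CPM was computed from total counts over the sum of each library. The quasi-likelihood F-test of edgeR 4.0.16 (R 4.3.3), with TMM scaling, the filterByExpr filter at 10 counts and a Benjamini-Hochberg threshold of 0.05, was fitted to all 27864 genes, of which 18520 passed the filter, and fold changes are weeping over standard. The standard error was taken as the size of the log2 fold change divided by root F. DESeq2 1.42.0 and limma 3.58.1 (voom), other scalings and filters, single-position reads, a length offset, lane 6 alone and each tree left out served as alternatives, and lane as a model term was added after seeing the data. Genes are given by position, from 1, on the table's scaffolds, since starts were read as counted from 0. The span was the end minus the start plus 1 for all 27864 genes. The genes named are the 10 of highest CPM, the 6 of smallest adjusted p in each direction, the most variable, and the longest, shortest and borderline genes, and identifiers are printed for at most 2 in each direction. The 6 in each direction were taken among called genes whose habits did not overlap. The members and lists were chosen with earlier results of these data known. Trees are the replicates, 1 library each, so p-values set the difference between the habits against the spread between these trees.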

Additional observations from a re-analysis of the deposited data

Results flagged for a closer look

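In 8 of 80 groups of 4 trees, over the named genes, the summed shares and the library totals, 1 tree stood far from the other 3 by Dixon's criterion, which chance meets in about 1 group in 20. Some of the genes were named for their wide spread, and the sets of summed shares hold genes in common. The 8 flags can therefore not be weighed against that rate. Of these 8, 3 were weeping tree 4. The gene on scaffold 6 from 22947380 had 5636 CPM in weeping tree 4, against 3359 to 3700 CPM in the other weeping trees, and 7054 CPM in standard tree 7, against 5104 to 5293 CPM in the other standard trees. Another gene on scaffold 8 from 12297812 had 5140 CPM in weeping tree 4, against 2451 to 2863 CPM in the others. The gene on scaffold 1 from 28721397, ppa014171m.g, had 407 CPM in weeping tree 4, against 195 to 213 CPM. Weeping tree 2 stood apart for the gene on scaffold 1 from 27617441, ppa005045m.g, with 840 CPM against 729 to 744 CPM. The gene on scaffold 5 from 17932884 had 809 CPM in weeping tree 3, against 38.8 to 169 CPM. Standard tree 9 stood apart for the gene on scaffold 6 from 5286088, with 7122 CPM against 4763 to 5135 CPM. The gene on scaffold 8 from 16828572 had 3239 CPM in standard tree 7, against 1.11 to 1.74 CPM in the other standard trees.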

How the results depend on the processing

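No paired analysis was possible because tree numbers are not shared between the habits. Of 682 values of 31 named genes under 22 alternatives, 571 kept direction and side of the threshold, 70 lost the call, 14 gained one and 27 changed sign, in 7 genes that were not called. The count of 28 called genes (16 higher, 12 lower) became 62 with DESeq2 (35, 27), 17 in lane 6 alone (8, 9), 17 with lane as a model term (10, 7), 20 without the filter (15, 5), 4 with a fold minimum of 2 (1, 3), 0 at an adjusted p of 0.01 (0, 0) and 0 to 50 with a tree left out (0 to 32 higher, 0 to 26 lower), and 26 to 34 under the other alternatives. The share of 20.1% in weeping and 21.0% in standard trees became 18.4% and 18.9% with single-position reads, 25.7% and 26.8% over the chosen scaffolds only, 14.5% and 15.6% for the first 100, 10.2% and 11.1% for the first 50, 3.80% and 4.97% for the first 10, 17.7% and 19.1% for a choice by RPKM, and 22.1% and 23.1% over all scaffolds; chosen in weeping trees, it was 20.6% in standard trees. With a tree left out it was 19.9 to 20.4% and 20.9 to 21.2%. The share of the first 10 became 2.22% and 2.99% with single-position reads and 4.85% and 6.33% over the chosen scaffolds, and in standard trees 4.17% chosen in weeping trees, 3.96% by RPKM and 5.14% over all scaffolds. With a tree left out it was 3.57 to 3.92% and 4.92 to 5.03%. The median CV was 15.0% in weeping trees with TMM scaling, and with a tree left out 10.9 to 13.9% in weeping and 12.1 to 17.8% in standard trees. The median span of 2389 bp became 1219.5 bp by RPKM. Signs changed for the genes at 38637142 (log2 fold change 0.10 with single-position reads, 0.022 with the length offset, -0.11 to 0.062 with a tree left out), 25072621 (0.014 in lane 6, 0.018 with the lane term), 2978447 (-0.086 to 0.20 with a tree left out), 16828572 (3.49 with limma-voom, -1.57 to 8.05 with a tree left out), 18678435 (0.086 with the offset, 0.085 in lane 6, 0.089 with the lane term, -0.14 to 0.10 with a tree left out), 12769963 (0.066 in lane 6, 0.072 with the lane term, -0.34 to 0.036 with a tree left out) and 22190851 (-0.0062 with upper-quartile scaling, -0.0038 with a minimum count of 50, -0.062 to 0.14 with a tree left out). For these changes the cause was not tested. From the mean reads over the 8 libraries, the counting CV of each of the 200 genes was at most 1.09%. This does not cover the gene at 22190851, which is not among the 200. In single trees with few reads it was larger, as for the gene at 16828572, with 1.11 CPM in standard tree 10.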
